A study of Mus musculus with 25 samples.

Results

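Interferon-stimulated genes are the subject here: 39 genes, taken by symbol from a fixed list of names. The list was chosen with earlier results of these data known. Its genes were followed in the esophagus of mice that express the cancer-derived NRF2 L30F mutant or lack KEAP1 in squamous cells. All 39 were among the 21106 genes of the table for pups. The table for adults held 37 of them among its 19942 genes, and Mx1 and Mx2 were not analysed here in adults. Every listed member passed the filter on low values, a normalised count of 1 or more in 3 or more of the pup libraries or 4 or more of the adult ones.

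The study measured bulk RNA of the whole esophagus in 25 libraries and asked how the NRF2 mutation compares with loss of KEAP1. In the first experiment, mice were 7 to 10 days old: 3 libraries each came from wild type, from homozygous NRF2L30F/L30F::K5Cre mice and from KEAP1flox/flox::K5Cre mice. In the second, mice were 6 to 9 weeks old and were sampled 1 week after tamoxifen (100 µg per g body weight on 3 days): 4 libraries each came from wild type, from KEAP1flox/flox::K5CreERT2 mice, and from mice with the L30F allele in 1 copy (heterozygous, NRF2L30F/+::K5CreERT2) or both (homozygous, NRF2L30F/L30F::K5CreERT2). L30F replaces the leucine at codon 30 of NRF2 by phenylalanine. K5Cre places the Cre recombinase under the keratin 5 promoter, active in squamous epithelium, and CreERT2 works only after tamoxifen. The labels do not say whether wild type carried a Cre or whether libraries came from separate animals, so p-values measure the spread between libraries, which may be technical. Because the whole organ was sampled, fewer cells of a type and less RNA per cell cannot be told apart.

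As background, type I and type III interferons bind receptors at the cell surface whose kinases, JAK1 and TYK2, phosphorylate STAT2 and other signal transducers. STAT2 and IRF9 are subunits of the complex ISGF3, which binds the interferon-stimulated response element in the promoters of target genes and switches on antiviral effectors, nucleic acid sensors and the pathway's own factors, IRF7 among them. Interferon gamma acts through gamma-activated sites and through IRF1. NRF2 is the transcription factor of the oxidative stress response, KEAP1 is the adaptor that delivers it to ubiquitination, and L30F lies in the DLGex motif of NRF2, which takes part in that contact.

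The response element itself was looked for in the members' promoters, and the windows printed here are shown because they hold matches to its core. RefSeq promoter sequences (mouse build GRCm38.p6, the reference table's build and not the GRCm39 build of the counts) were at hand for 29 of the 39 members. Within the 250 bases before the start site, the core (GAAA, any 2 bases, then GAAA again), on either strand and with overlapping matches counted, occurred in 12 of the 29 (41.4%) and in 936 of all 27025 genes with a promoter sequence (3.46%). A gene with several start sites counted if any of them had a match. Capitals mark the matches, and 20 bases (or as many as remain before the start site) are given on each side, 5′ to 3′ on the strand of the gene. Isg15 holds 3 overlapping matches, Oas1a and Bst2 overlapping pairs, and Ifit1 a spaced pair. The windows of Ifit3 and its neighbour Ifit3b are the same letter for letter.
Isg15 (chr4:156200855-156200916, minus strand): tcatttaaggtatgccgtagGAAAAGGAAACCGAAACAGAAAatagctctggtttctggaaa
Ifit1 (chr19:34640765-34640833, plus strand): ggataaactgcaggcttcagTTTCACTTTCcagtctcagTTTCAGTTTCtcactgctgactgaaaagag
Ifit3 (chr19:34583353-34583436, plus strand): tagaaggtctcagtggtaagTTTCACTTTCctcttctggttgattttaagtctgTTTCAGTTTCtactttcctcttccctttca
Ifit3b (chr19:34607749-34607832, plus strand): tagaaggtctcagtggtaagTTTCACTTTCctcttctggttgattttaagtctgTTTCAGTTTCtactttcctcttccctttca
Ifit1bl1 (chr19:34602043-34602092, minus strand): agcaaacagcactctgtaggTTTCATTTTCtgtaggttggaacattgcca
Oas1a (chr5:120907526-120907565, minus strand): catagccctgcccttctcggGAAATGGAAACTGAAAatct
Oas3 (chr5:120777705-120777754, minus strand): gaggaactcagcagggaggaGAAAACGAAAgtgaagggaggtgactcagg
Bst2 (chr8:71537567-71537622, minus strand): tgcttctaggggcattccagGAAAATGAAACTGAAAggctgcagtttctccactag
Stat2 (chr10:128270256-128270305, plus strand): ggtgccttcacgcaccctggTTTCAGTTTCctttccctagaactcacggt
Gbp2 (chr3:142620584-142620633, plus strand): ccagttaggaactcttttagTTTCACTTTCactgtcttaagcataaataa
The other 2 members with a match were Rsad2 and Gbp3. Members outside the 12 with a match include Irf7, Irf1 and Oasl2, so no match says only that these letters are not in this window. The core of the gamma-activated site, TTCNNNGAA, was found in 5 of the 29 (17.2%, against 8.13% of all genes with a promoter sequence), and the core of the antioxidant response element bound by NRF2, TGACNNNGC, in 3 (Irf7, Oasl2 and Rsad2) of the 29 (10.3%, against 11.5%). A match is a description of sequence and was not tested for binding.

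Depth was 18791974 to 19650122 reads a library in pups and 10867771 to 32281376 in adults, with L30F homozygotes the shallowest (10867771 to 11643394) and wild type (27529865 to 32281376) the deepest. The targeted gene matched the labels: Keap1 fell in the KEAP1-deficient groups (log2 change -0.46, adjusted p = 0.012 in pups and -0.60, adjusted p = 8e-06 in adults), and Nqo1, a standard NRF2 target, rose in every mutant group, by 7.01 to 7.28 log2 units in pups and 1.95 to 2.51 in adults. The L30F change itself is not visible in gene counts. One group must be read with care. In KEAP1-deficient pups, library 2 was the highest of the 3 for 34 of 39 members (87.2%; 36.9% of all genes) and library 3 the lowest for 35 (89.7%; 32% of all genes). Relative to the wild-type mean, the median member stood at -0.17, 0.57 and -0.96 log2 units in libraries 1, 2 and 3 of that group, while the median of all genes stood between -0.04 and 0.02 in every library of the study. Results of the pup experiment are therefore given with and without library 2. Library 2 was singled out by these same values, so lower members without it follow in part from that choice. Library 3 stood apart in the other direction.

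**Figure D1:**
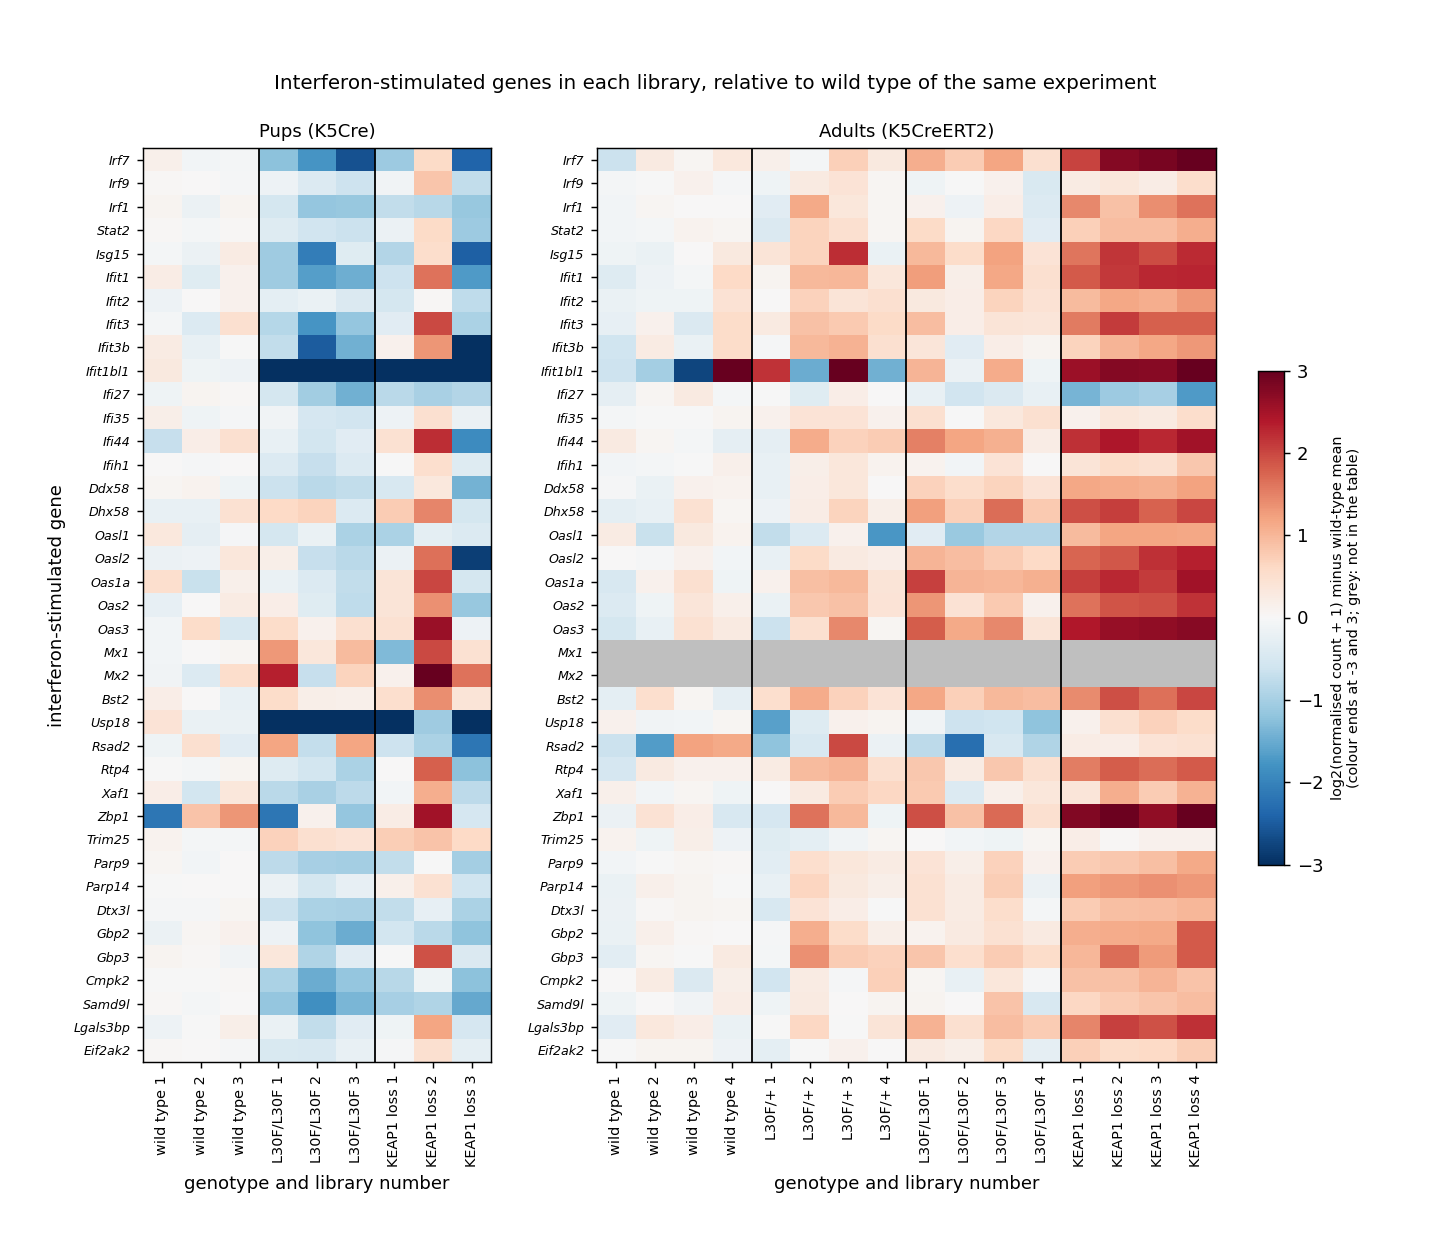
Each cell is the log2(normalised count + 1) of a member (vertical axis) in a library (horizontal axis) minus the mean of the wild-type libraries of the same experiment, with colour limits at -3 and 3; grey cells are genes that are not in the adult table. In each of the 4 adult KEAP1-deficient libraries 36 of 37 members lie above the wild-type mean, L30F homozygous pups are mostly blue, and library 2 of the KEAP1-deficient pups stands out as red beside its blue neighbours.

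In adults, loss of KEAP1 came with the broadest rise: 32 of 37 members were higher than in wild type and 1, Ifi27, was lower (limma with Benjamini-Hochberg adjustment over 19857 genes, called at adjusted p under 0.05). Among all genes, 46.8% were called in this comparison, 24.1% higher and 22.7% lower, and the share called higher among members was 86.5%. The median member rose by 1.30 log2 units, beside -0.01 over all genes, and 33 members (89.2%; 25.9% of all genes) had all 4 KEAP1-deficient libraries above all 4 wild-type libraries. Only Ifit1bl1, Rsad2, Trim25 and Usp18 passed in neither direction. Leaving out any 1 library gave 31 to 33 calls.

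Among the transcription factors, Irf7, the factor that amplifies interferon production, changed most. It stood at 54.9, 103, 90.2 and 108 normalised counts in adult wild type and at 353, 585, 625.5 and 736 after loss of KEAP1. The lowest mutant library lay more than 3 times above the highest control, a rise of 6.45-fold (log2 change 2.67, SE 0.25, adjusted p = 5e-07). Irf1, which acts downstream of interferon gamma, went from 219.5, 244, 238 and 235 to 635, 433, 613 and 729.9 (log2 change 1.34, SE 0.24, adjusted p = 0.00031). Stat2, a subunit of ISGF3, went from 356, 362, 406 and 392.5 to 624, 719, 716 and 808 (log2 change 0.91, SE 0.22, adjusted p = 0.003). Neither gene's groups overlapped. Irf9, the DNA-binding subunit, moved least of the 4, from 394, 409.8, 453 and 403 to 489.6, 529, 481 and 597 (log2 change 0.33, SE 0.13, adjusted p = 0.044), and its call was lost without any of wild-type libraries 1, 2 or 4, L30F homozygote libraries 1 or 2, or KEAP1-deficient libraries 1, 2 or 4 (highest adjusted p = 0.13).

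The ubiquitin-like modifier Isg15 stood at 23.7, 22.6, 26.1 and 32.3 in adult wild type and 81.1, 118, 104 and 125 in KEAP1-deficient adults (log2 change 1.99, SE 0.37, adjusted p = 0.00038). For Ifit1, which binds viral RNA that lacks the host cap methylation, the values were 44.7, 52.7, 56.6 and 90.1 and 213.5, 261, 288 and 293 (log2 change 2.13, SE 0.27, adjusted p = 1.2e-05). Both genes separated the groups completely. Ifit2, Ifit3 and Ifit3b rose by 1.12, 1.81 and 1.04 log2 units. Ifit3 and Ifit3b share 61.8% and 55.2% of their 31-base words with other genes, almost all with each other, so the split between them is uncertain. Ifit1bl1 was at 3.4, 2.3, 0 and 144.5 in wild type and 38.9, 44.7, 44.3 and 59.7 in the mutant. A single wild-type library, number 4, exceeded all mutant libraries, and the gene was not called (log2 change 2.80, SE 1.35, adjusted p = 0.1).

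The 5 members of the oligoadenylate synthetase family, whose active enzymes sense double-stranded RNA and switch on RNase L, all rose. Oas3 went from 33.2, 41.2, 66.6 and 58.5 to 259, 301, 309 and 327, 6-fold (log2 change 2.61, SE 0.37, adjusted p = 3.3e-05). Oas1a went from 35.9, 56.2, 71.6 and 46.4 to 217.5, 250.0, 222 and 295.5 (log2 change 2.24, SE 0.26, adjusted p = 3.9e-06), but 68.8% of its 31-base words occur in another gene too, chiefly Oas1g. Oasl2, an oligoadenylate synthetase-like gene, went from 97.5, 95.1, 106 and 91.4 to 330.1, 356, 449 and 495 (log2 change 2.04, SE 0.16, adjusted p = 8.5e-08), the smallest adjusted p among the members. All 3 genes had separate groups. Oas2 and Oasl1 rose by 1.90 and 1.11 log2 units.

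The nucleic acid sensors rose as well. Zbp1, a sensor of Z-form nucleic acid that can start necroptosis, had the largest change of all called members: 21.7, 33.6, 28.6 and 17.5 normalised counts in wild type and 175, 194, 161 and 298 in the mutant, 8.18-fold (log2 change 2.98, SE 0.42, adjusted p = 3.3e-05). The cytosolic RNA sensors of the RIG-I family rose in the order Dhx58 (1.95), Ddx58, which encodes RIG-I (1.13), and Ifih1, which encodes MDA5 (0.56). Eif2ak2, the double-stranded RNA-activated kinase PKR, rose by 0.65. Trim25, the ubiquitin ligase that activates RIG-I, was the exception, at 2244, 1908, 2334 and 1878 in wild type and 2395.5, 2145, 2293 and 2284.5 in the mutant, with overlapping groups (log2 change 0.13, SE 0.09, adjusted p = 0.28).

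Among effectors, Ifi44 went from 25.1, 21.4, 19.9 and 16.8 to 96.9, 114, 102 and 122 (log2 change 2.34, SE 0.28, adjusted p = 5.9e-06), with no overlap. Bst2 (tetherin, which holds budding virus at the membrane), Rtp4 and the secreted glycoprotein gene Lgals3bp rose by 1.75, 1.72 and 1.90 log2 units, and the guanylate-binding proteins Gbp2 and Gbp3 by 1.30 and 1.44. The ADP-ribosylation group rose together, Parp14 by 1.30, Parp9 by 0.90 and Dtx3l, the ubiquitin ligase that pairs with PARP9, by 0.90. Cmpk2, Xaf1, Samd9l and Ifi35 rose by 0.91, 0.81, 0.78 and 0.31, although the call of Ifi35 was held in 7 of 16 fits that each left out 1 library (highest adjusted p = 0.15; lost without any wild-type library, heterozygote library 3, homozygote library 3 or KEAP1-deficient libraries 2, 3 or 4). Ifi27 went the other way, from 315, 398, 457 and 367 to 145, 178, 189 and 116, and was lower in every mutant library (log2 change -1.30, SE 0.16, adjusted p = 7.3e-06).

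Rsad2 and Usp18 stood apart from this rise. Rsad2 encodes viperin, an antiviral enzyme that makes a chain-terminating nucleotide, and varied widely within groups: 114.5, 55.6, 413 and 394 in wild type, 78.0, 127.5, 709.7 and 159 in heterozygotes, 104, 36.5, 128 and 95.9 in homozygotes and 209.6, 208.5, 241 and 246 after loss of KEAP1. The wild-type libraries alone spanned the whole KEAP1-deficient range (log2 change 0.33, SE 0.70, adjusted p = 0.74; interval of the difference -1.17 to 1.82). Usp18, the protease that removes ISG15 and damps signalling at the interferon receptor, was at 76.5, 64.9, 66.0 and 73.3 in wild type and 77.2, 98.2, 113 and 103 in the mutant. Every mutant library was above every control, but the gene was not called (log2 change 0.46, SE 0.32, adjusted p = 0.25); with only these groups in the fit the adjusted p was 0.016.

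**Figure D2:**
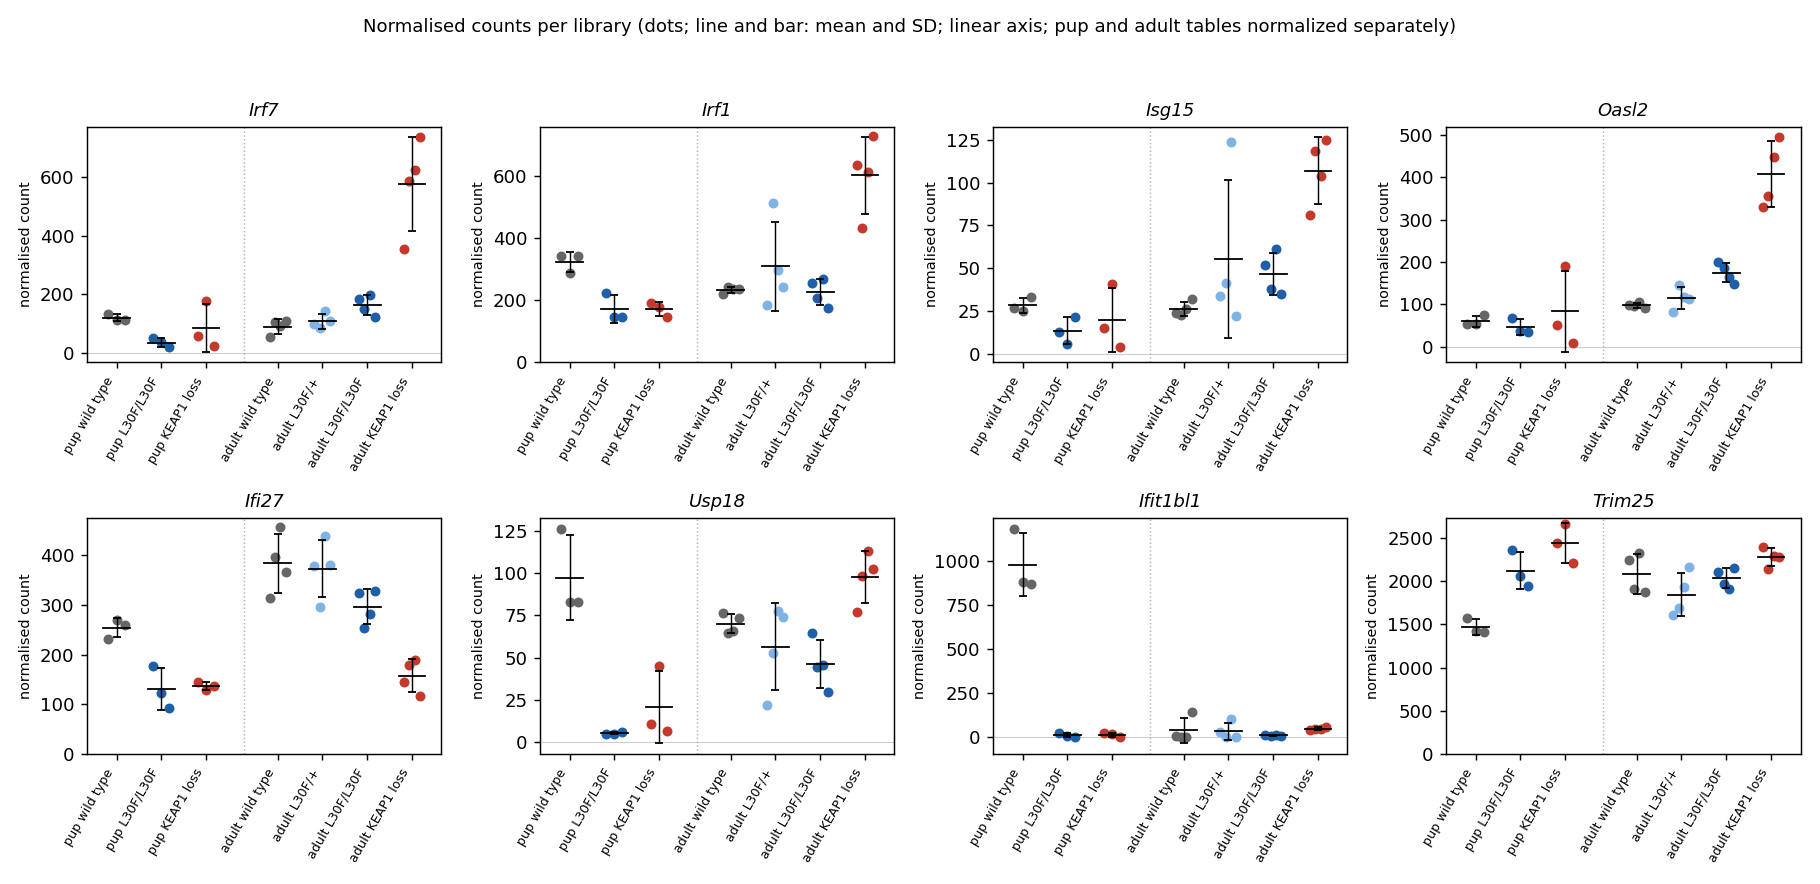
Normalised counts (vertical axes, linear, each panel on its own scale) of 8 members in every library, grouped by genotype and experiment on the horizontal axis, with 1 point per library, a line at each group's mean and a bar of 1 SD (n = 3 in pups and 4 in adults). Among adults, the mean of Irf7, Oasl2 and Isg15 is highest in the 4 KEAP1-deficient libraries and that of Ifi27 lowest, and Usp18 and Ifit1bl1 drop in both mutant pup groups.

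Leukocyte markers moved with this rise. The summed normalised counts of 5 pan-leukocyte genes were 1230 to 2280 in adult wild type, 1630 to 1860 in heterozygotes, 2110 to 4820 in L30F homozygotes and 6170 to 7850 after loss of KEAP1. All 5 were called higher in homozygotes and in KEAP1-deficient adults, and none was at 0 in any adult library. In the KEAP1-deficient adults, 6 of 7 T and NK cell markers were called higher (summed 842 to 1070, against 46.7 to 75.9 in wild type), 5 of 5 neutrophil markers (1710 to 3460, against 200 to 452) and 8 of 8 macrophage and monocyte markers (12600 to 17100, against 5050 to 7910). The summed squamous markers were 290000 to 360000 there, against 972000 to 1310000 in wild type. The 10 squamous markers did not move together, with 3 called higher, 4 lower and a median log2 change of 0.06. Other cell types shifted too in KEAP1-deficient adults. Fibroblast marker sums were 298000 to 390000, against 127000 to 157000 in wild type, with 5 of 7 markers called higher. Striated muscle sums were 127000 to 182000, against 310000 to 346000, with 7 of 8 markers called lower. All 6 smooth muscle markers were called lower. The part of all these cells in the result was not tested.

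In adult L30F homozygotes the rise was smaller and took in fewer genes: 11 of 37 members were called higher than wild type and none lower (limma; 22.3% of all genes were called, 11.8% higher and 10.4% lower). The 11 were Bst2, Ddx58, Dhx58, Ifi44, Irf7, Lgals3bp, Oas1a, Oas3, Oasl2, Rtp4 and Zbp1, that is 3 sensors, 3 synthetase genes, 1 transcription factor and 4 others. The median member stood at 0.35 log2 units, beside -0.01 over all genes. Groups did not overlap for 11 members in the higher direction (29.7%; 12.7% of all genes) and for Usp18 in the lower (12.1% of all genes). The count fell to 7 without wild-type library 1, to 6 without homozygote library 1 and to 7 without homozygote library 3. It was 17 without heterozygote library 1, which enters only through the shared spread. The share of all genes called in these fits is not given here, so a change over all genes cannot be told apart from one of the members. Of the 11 calls, 6 held in every such fit.

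Oas1a stood at 214.5, 104.5, 102 and 108 in the homozygotes, all above the wild-type libraries given above (log2 change 1.29, SE 0.26, adjusted p = 0.0027), with library 1 about as high as the KEAP1-deficient ones. Dhx58, a regulator of the RNA sensors, stood at 31.8, 33.6, 54.1 and 41.0 in wild type and 93.1, 64.7, 127 and 68.0 in homozygotes (log2 change 1.09, SE 0.23, adjusted p = 0.0031), again without overlap. Bst2 went from 95.5, 166, 122 and 96.1 to 260.3, 192, 229 and 221 (log2 change 0.94, SE 0.19, adjusted p = 0.0028). For these 3 genes every homozygote lay above every wild-type library. Oasl2 stood at 200.4, 186, 165 and 148 (log2 change 0.83, SE 0.16, adjusted p = 0.0023) and Ddx58 went from 205, 184, 230.2 and 225 to 341, 302, 333 and 279 (log2 change 0.57, SE 0.12, adjusted p = 0.0028). Lgals3bp rose by 0.80. These 6 genes were called in all 16 fits that each left out 1 library.

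The other 5 calls depended on single libraries. Zbp1 stood at 96.2, 46.4, 82.5 and 34.9 in homozygotes (log2 change 1.25, SE 0.42, adjusted p = 0.045), a call lost without any of the 4 wild-type libraries, homozygote libraries 1 to 3 or KEAP1-deficient libraries 1 to 3 (highest adjusted p = 0.13) and with replicate number as a block (0.053). Oas3 stood at 172, 106, 133 and 62.8 (log2 change 1.19, SE 0.37, adjusted p = 0.031), a call lost without wild-type libraries 1 or 2 or homozygote libraries 1 to 3 (highest 0.096). Irf7 stood at 185, 148, 197 and 120.3, above every wild-type library (log2 change 0.88, SE 0.25, adjusted p = 0.02), and missed the threshold without wild-type library 1 or homozygote libraries 1 or 3 (highest 0.073). Ifi44, at 59.9, 48.1, 44.3 and 24.4, was lost only without homozygote library 1 (0.065; log2 change 1.00, SE 0.28, adjusted p = 0.02 with all libraries). Rtp4 rose by 0.58, and its call held in 5 of 16 fits (highest adjusted p = 0.16; kept only without wild-type library 2, heterozygote libraries 1 to 3 or homozygote library 2).

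Homozygotes 1 and 3, the libraries with the largest leukocyte marker sums (3470 and 4820, against 2590 and 2110 in libraries 2 and 4), also had the largest median member difference from wild type (0.58 and 0.67, against 0.21 and 0.23). The part of leukocytes in that order was not tested. Among the factors, Irf1 stood at 256, 209, 267.5 and 174, Irf9 at 375.5, 409.6, 457 and 303 and Stat2 at 568, 401, 584 and 299.9, all overlapping wild type, with log2 changes of -0.07, -0.12 and 0.24 that were not called. Isg15 stood at 52.1, 38.1, 61.1 and 34.9, every library above wild type, but missed the threshold (log2 change 0.78, SE 0.37, adjusted p = 0.14); without heterozygote library 3, whose own value was 123.5, its adjusted p was 0.024. Ifit1 stood at 142, 66.3, 133 and 81.9 and overlapped wild type (log2 change 0.76, SE 0.27, adjusted p = 0.057); it passed without wild-type library 4 (0.02), heterozygote library 1 (0.045) or homozygote library 2 (0.024). Usp18, at 64.7, 44.8, 45.9 and 29.6, was below wild type in all 4 libraries without passing the test (log2 change -0.64, SE 0.32, adjusted p = 0.16; 0.034 without heterozygote library 1).

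With 1 copy of L30F, 2 of 37 members were called higher and none lower (limma; 9.7% of all genes called, 4.8% higher and 4.9% lower). The share among members, 5.41%, was near that of all genes. Bst2 stood at 167, 254, 189 and 154 (log2 change 0.68, SE 0.19, adjusted p = 0.036) and Rtp4 went from 44.0, 75.4, 68.4 and 68.6 to 74.3, 122, 128 and 87.4 (log2 change 0.67, SE 0.20, adjusted p = 0.047). Neither call was stable: that of Bst2 was lost without wild-type libraries 1, 3 or 4 or heterozygote libraries 2 or 3 (highest adjusted p = 0.13), that of Rtp4 without 11 of the 16 libraries (wild type 1 to 3, heterozygotes 2 and 3, homozygotes 1 and 4, and all 4 KEAP1-deficient ones; highest 0.17), and both with only heterozygotes and wild type in the fit. The median member was at 0.27, beside 0.01 over all genes, and 32 of 37 log2 changes were positive. In 1 member, Ifi35, all heterozygotes lay above all wild-type libraries (7.72% of all genes), and in none did they all lie below (6.77% of all genes).

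Within the heterozygotes the members moved together by library. Library 1 was the lowest of the 4 for 30 of 37 members (81.1%; 31.3% of all genes), and libraries 1 to 4 stood at -0.15, 0.50, 0.47 and 0.17 log2 units from wild type at the median member. Isg15 varied widely among them, at 34.1, 41.6, 123.5 and 22.2 (log2 change 0.76, SE 0.37, adjusted p = 0.21), with library 3 as high as the KEAP1-deficient group and library 4 below every wild-type library. For Irf7 (96.3, 83.1, 142 and 107), Irf1 (184, 514, 298 and 242), Irf9 (379, 497, 555 and 436) and Stat2 (279, 597.5, 523 and 393) the heterozygotes overlapped wild type, as they did for Ifit1 (62.1, 117.5, 119 and 74.1), Oasl2 (82.9, 146, 117.5 and 113) and Usp18 (21.9, 53.0, 77.5 and 74.1). The pan-leukocyte marker sums of these 4 libraries were close to each other, 1630 to 1860, and lowest in library 1. Sums of single cell types varied more. In libraries 1 to 4 they were 40.2, 110, 103 and 51.9 for T and NK cell markers. For neutrophil markers they were 285, 148, 199 and 209, highest in library 1. The part of these cells in the members' order was not tested.

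Comparing both allele doses directly, 3 of 37 members were higher in homozygotes than in heterozygotes (limma; 16.4% of all genes called, 8.07% higher and 8.29% lower), a share of 8.11% that matches the background. They were Dhx58 (log2 change 0.87, SE 0.23, adjusted p = 0.017), Oasl2 (log2 change 0.62, SE 0.16, adjusted p = 0.017) and Ddx58 (log2 change 0.48, SE 0.12, adjusted p = 0.011), each without overlap between the groups. Dhx58 was lost without homozygote library 3 (0.053) and Oasl2 without homozygote library 1 (0.058); with only these groups in the fit none of the 3 was called, and 5 members were called without homozygote library 4. For Irf7 the homozygotes, 120.3 to 197, overlapped the heterozygotes, 83.1 to 142, and the log2 difference was 0.60 (interval 0.07 to 1.13).

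Set directly against loss of KEAP1, adult L30F homozygotes had lower levels of most members. In the homozygotes 31 of 37 members were called lower and 1, Ifi27, was higher (limma; 26.4% of all genes called, 13.5% lower and 12.9% higher), and 30 (81.1%; 15.7% of all genes) did not overlap in the lower direction. The largest called differences were those of Oasl1 (log2 change -1.92, SE 0.32, adjusted p = 0.00041), Irf7 (log2 change -1.79, SE 0.25, adjusted p = 9.5e-05) and Zbp1 (log2 change -1.73, SE 0.42, adjusted p = 0.007). Oasl1 is a repressor of Irf7 translation; its values were 61.6, 32.5, 64.1 and 55.8 in wild type, 41.0, 23.2, 27.5 and 27.9 in L30F homozygotes and 100.3, 118, 119 and 116 after loss of KEAP1, so that all homozygotes lay below all KEAP1-deficient libraries. Irf1, which was not called with L30F, was lower than after loss of KEAP1 (log2 change -1.40, SE 0.24, adjusted p = 0.00063). Ifi35, Ifit1bl1, Rsad2, Trim25 and Xaf1 were not called, and 22 of the 32 calls held in every fit that left out 1 library, which gave 24 to 33. Over wild type, the NRF2 target Nqo1 rose by 2.51 log2 units in the homozygotes and 2.45 after loss of KEAP1. Of 7 NRF2 targets, 2 were called lower in homozygotes than after loss of KEAP1 and 0 higher. Of their log2 differences 4 were positive, with a median of 0.06. Their summed normalised counts were 61500 to 93000 in homozygotes and 83400 to 108000 after loss of KEAP1. The part of these targets' levels in the members' difference was not tested.

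In pups neither mutant showed such a rise. L30F homozygotes had 9 of 39 members called lower (Cmpk2, Dtx3l, Gbp2, Ifi27, Ifit1bl1, Irf1, Parp9, Samd9l and Usp18) and 1, Trim25, higher (limma over 21007 genes; 39.2% of all genes were called, 17.1% lower and 22% higher). As a share, 23.1% lower is near the background. Of all members, 32 of 39 log2 changes were negative, with a median of -0.54 beside -0.03 over all genes, and for 23 members (59%; 25.5% of all genes) all 3 homozygotes lay below all 3 wild-type libraries, against 2 (27% of all genes) above. Median member differences were -0.39, -0.70 and -0.74 in libraries 1 to 3. Without KEAP1-deficient library 2, which enters only through the shared spread, 15 members were called, 14 of them lower (39.5% of all genes called), as was the case without KEAP1-deficient library 3 (37.7%). With only homozygotes and wild type in the fit 18 were called, 17 lower (39.1%).

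Usp18 and Ifit1bl1 had the largest falls. Usp18 stood at 126, 82.7 and 83.0 in wild type, 5.0, 4.9 and 6.1 in homozygotes and 10.7, 45.1 and 6.5 in KEAP1-deficient pups. Both mutants lay below every control, 18.2-fold lower with L30F (log2 change -3.93, SE 0.57, adjusted p = 0.00046) and 4.69-fold lower without KEAP1 (log2 change -2.60, SE 0.57, adjusted p = 0.0039). Ifit1bl1, an IFIT1-like gene, stood at 1185, 883 and 870.2 in wild type, 25.9, 5.9 and 3.1 in homozygotes and 25.6, 14.7 and 2.2 in KEAP1-deficient pups. The wild-type libraries were 84.2-fold and 69.2-fold above the mutants (log2 change -6.73, SE 0.89, adjusted p = 0.00055; log2 change -6.47, SE 0.89, adjusted p = 0.00047). Ifit1bl1 shares 19.3% of its 31-base words with other genes, chiefly Ifit1bl2, so part of the signal may belong to that copy. Its promoter window above carries 1 match to the response element, and another start site of the gene, not printed, also carries 1 (chr19:34599428-34599470, minus strand).

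Samd9l, a growth-restraining antiviral factor, went from 604.5, 561 and 594 to 262, 165 and 227 in homozygotes (log2 change -1.45, SE 0.19, adjusted p = 0.00026) and 294, 311.5 and 203 without KEAP1 (log2 change -1.14, SE 0.19, adjusted p = 0.0008). Irf1 went from 342, 287 and 343 to 223, 145 and 146 (log2 change -0.94, SE 0.18, adjusted p = 0.0025) and 192, 179 and 146 (log2 change -0.91, SE 0.18, adjusted p = 0.0021). For both, no mutant library reached a wild-type one. Ifi27, which encodes a small membrane protein, went from 232, 269.5 and 259 to 176, 122 and 93.2 (log2 change -1.0, SE 0.20, adjusted p = 0.003) and 145, 129 and 136 (log2 change -0.89, SE 0.20, adjusted p = 0.0043), again with no overlap. Cmpk2, a mitochondrial nucleotide kinase gene that neighbours Rsad2, went from 106, 106 and 110.4 to 54.8, 37.5 and 47.1 (log2 change -1.21, SE 0.26, adjusted p = 0.0047) and 59.7, 97.1 and 45.4 (log2 change -0.73, SE 0.26, adjusted p = 0.04). The second of these calls was lost without any wild-type library or KEAP1-deficient libraries 1 or 3 (highest adjusted p = 0.14).

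Dtx3l fell by 0.85 log2 units in homozygotes and 0.65 without KEAP1, and its partner Parp9 fell by 0.94 and 0.59; the latter call held only without KEAP1-deficient library 2 (highest adjusted p otherwise 0.15). Gbp2 went from 125.5, 146 and 154 to 127.5, 61.1 and 50.2 (log2 change -0.94, SE 0.32, adjusted p = 0.04) and 96.0, 80.1 and 60.5 (log2 change -0.86, SE 0.32, adjusted p = 0.047). Homozygote library 1 overlapped wild type. Its calls were lost in 6 of 9 fits each (highest 0.12 and 0.15): without any wild-type library, homozygote library 2 or KEAP1-deficient library 2, and also without homozygote library 3 in the first comparison and KEAP1-deficient library 3 in the second. Trim25 rose in both mutants, from 1576.5, 1420.4 and 1412 to 2359, 2063 and 1944 (log2 change 0.53, SE 0.10, adjusted p = 0.0017) and 2449, 2669 and 2208 (log2 change 0.73, SE 0.10, adjusted p = 0.00013), with no overlap, and it was called in every fit that left out 1 library.

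In KEAP1-deficient pups 9 of 39 members were called lower (Cmpk2, Dtx3l, Gbp2, Ifi27, Ifit1bl1, Irf1, Parp9, Samd9l and Usp18) and 2, Bst2 and Trim25, higher (limma; 49.5% of all genes called, 23.2% lower and 26.3% higher), so the lower share of 23.1% lies at the background. The wild-type libraries are shared with the L30F comparison. The median member was at 0.00, beside -0.05 over all genes, 20 of 39 log2 changes were positive, and 10 members (25.6%; 30.8% of all genes) lay wholly below wild type and 2 (5.13%; 30.3% of all genes) wholly above it. That picture depended on single libraries. Library 3 stood apart on the low side, with its median member at -0.96 log2 units. Leaving out each library in turn moved the log2 change of Ifit1 between -1.16 and 0.50 and that of Oasl2 between -1.50 and 0.74. Library 2 had been singled out by its high member values, so lower calls without it follow in part from that choice. Without library 2, 14 members were called, 13 lower (42.6% of all genes called), with a median of -0.64. Ddx58, Ifit1, Ifit2, Irf7 and Isg15 were then added to the lower genes, while Bst2 and Gbp2 were no longer called. Without wild-type library 2 or 3 the count was 7, with the share of all genes called in those fits not given here. Bst2 stood at 122, 106 and 89.8 in wild type and 150.4, 278 and 137 in the mutant (log2 change 0.76, SE 0.26, adjusted p = 0.031), and was also lost without wild-type libraries 2 or 3 (highest adjusted p = 0.1).

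Irf7 illustrates the split. It stood at 133, 112 and 113 in wild-type pups, 49.8, 34.5 and 18.4 in homozygotes and 55.5, 177 and 21.6 in KEAP1-deficient pups. The homozygotes were all below wild type without passing the test (log2 change -1.87, SE 0.67, adjusted p = 0.056), and passed it without KEAP1-deficient library 2 (0.007) or 3 (0.014), with limma-voom (0.047), with replicate number as a block (0.035) and with only homozygotes and wild type in the fit (0.0034). Of the KEAP1-deficient libraries, 2 were below wild type and library 2 above it (log2 change -0.97, SE 0.67, adjusted p = 0.26; without library 2, log2 change -1.75 and adjusted p = 0.015). Oasl2 was wider still, at 52.5, 53.4 and 75.3, 67.7, 36.5 and 33.8 and 52.3, 191 and 7.6, with the highest and the lowest of its 9 values in the same KEAP1-deficient group. Ifit1 stood at 35.6, 23.1 and 33.4, 13.9, 8.9 and 10.2 and 19.2, 94.8 and 8.6; the homozygotes were all below wild type (log2 change -1.40, SE 0.70, adjusted p = 0.14), and the gene was called lower in both mutants without library 2 (0.014 and 0.045).

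Isg15 stood at 26.7, 24.9 and 33.4, 13.0, 5.9 and 21.5 and 14.9, 40.6 and 4.3 in wild type, homozygotes and KEAP1-deficient pups. It was not called in either mutant (log2 change -1.17, SE 0.69, adjusted p = 0.21; log2 change -0.94, SE 0.69, adjusted p = 0.29), but without library 2 it was lower in KEAP1-deficient pups (log2 change -1.66, adjusted p = 0.046). The subunits of ISGF3 behaved alike. Stat2 stood at 299, 279 and 303, 225, 196 and 187 and 261, 437 and 137, and Irf9 at 262, 256 and 252, 229, 192 and 168 and 240.0, 458 and 154. For both, the homozygotes lay below wild type (log2 change -0.54, SE 0.34, adjusted p = 0.25; log2 change -0.39, SE 0.33, adjusted p = 0.38), and in KEAP1-deficient pups library 2 alone was above it. Stat2 passed the test in homozygotes without KEAP1-deficient library 3 (0.042).

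A few members did not follow the others in pups. Mx1 and Mx2 encode dynamin-like GTPases that block influenza and other viruses. Mx1 stood at 11.6, 12.5 and 12.8 in wild type, 31.9, 15.8 and 24.6 in homozygotes and 4.3, 51.9 and 17.3 without KEAP1, with all homozygotes above wild type but no call (log2 change 0.86, SE 0.69, adjusted p = 0.36). Mx2 stood at 8.0, 6.2 and 12.8, 47.8, 4.9 and 14.3 and 9.6, 113 and 29.2, the last again highest in library 2. Rsad2 stood at 132, 201 and 115, 329.7, 87.7 and 331 and 93.9, 74.5 and 31.3. Its mutants went opposite ways on average, with log2 change 0.55, SE 0.59, adjusted p = 0.5 in homozygotes and log2 change -1.25, SE 0.59, adjusted p = 0.12 without KEAP1, and neither was called; the latter passed without homozygote library 2 (0.029). Zbp1 gave at most 24.8 normalised counts in any pup library and none in 1 wild-type and 1 homozygous library.

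No member was called between the 2 mutants in pups (limma; 4.17% of all genes called, 1.76% higher and 2.4% lower in homozygotes), where 4 members had an unadjusted p under 0.05 and limma-voom on the recovered reads also called none. The median over members of the log2 difference, L30F homozygotes minus KEAP1 loss, was -0.43 with all libraries and -0.08 without KEAP1-deficient library 2. Pan-leukocyte marker sums in pups were 818 to 980 in wild type and 865 to 1120 in homozygotes. In KEAP1-deficient libraries 1 to 3 they were 1200, 623 and 928, lowest in library 2, where the members were highest. None of the 5 leukocyte markers was called in homozygotes and 1 was called higher without KEAP1. Neutrophil marker sums were higher in both mutants (200 to 275 and 212 to 310, against 78.3 to 116), with 5 and 4 of 5 markers called. In KEAP1-deficient libraries 1 to 3 the neutrophil sums were 228, 310 and 212, highest in library 2. The macrophage and monocyte sums there were 3540, 2460 and 3040, lowest in library 2. Macrophage and monocyte marker sums were 3930 to 4170 in wild type and 3870 to 4190 in homozygotes, with 1 of 7 markers called in each direction, and 2460 to 3540 without KEAP1, with 5 of 7 called lower and 2 higher. Fibroblast marker sums were lower (161000 to 228000 and 98500 to 195000, against 462000 to 499000) and squamous marker sums higher (241000 to 285000 and 320000 to 359000, against 152000 to 191000). Of 10 squamous markers, 7 were called higher and 3 lower in each mutant. The part of these shifts in the members' values was not tested.

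The same genotype therefore had unlike member effects in pups and adults, and the difference was tested. For L30F homozygotes, 15 of 37 members had a higher log2 change in adults than in pups and 1, Trim25, a lower one (33.5% of 19031 genes were called, 13.6% higher and 19.9% lower). For KEAP1 loss the counts were 20 and 1, again Trim25 (47.1% called, 20.6% higher and 26.5% lower). The experiments differ in age, Cre driver, tamoxifen and time since recombination, which cannot be told apart, and their tables were scaled separately, so only changes within each were compared. The medians of the members' differences were 1.15 and 1.58, beside -0.04 and -0.05 over all genes.

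Irf7 differed by 2.75 (SE 0.72, adjusted p = 0.012) for L30F and by 3.65 (SE 0.72, adjusted p = 0.0014) for KEAP1 loss. Irf1 differed by 0.87 (SE 0.30, adjusted p = 0.028) and 2.25 (SE 0.30, adjusted p = 9e-07). Irf1 was thus called lower in both pup mutants and higher in KEAP1-deficient adults. Usp18 differed by 3.29 (SE 0.65, adjusted p = 0.00089) and 3.06 (SE 0.65, adjusted p = 0.00098), although it was not called in either adult mutant, and Samd9l by 1.57 (SE 0.28, adjusted p = 7.8e-05) and 1.93 (SE 0.28, adjusted p = 2.8e-06). Isg15 and Gbp2 differed for KEAP1 loss by 2.92 (SE 0.78, adjusted p = 0.006) and 2.16 (SE 0.38, adjusted p = 0.00012). Ifit1bl1 gave the largest values, 7.19 (SE 1.62, adjusted p = 0.0013) and 9.27 (SE 1.62, adjusted p = 5.1e-05), for a gene at 870.2 to 1185 normalised counts in wild-type pups and 0 to 144.5 in adult wild type, on separately scaled tables. Leaving out 1 library at a time gave counts of 16 to 33 for KEAP1 loss and 9 to 22 for L30F. The 33 came without pup KEAP1-deficient library 2, which had been singled out by these same values. The L30F count was 9 without pup wild-type library 3 or pup homozygote library 3 and 10 without pup homozygote library 2. With all libraries 47.1% (KEAP1 loss) and 33.5% (L30F) of all genes were called, and the shares in these fits are not given here.

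**Figure D3:**
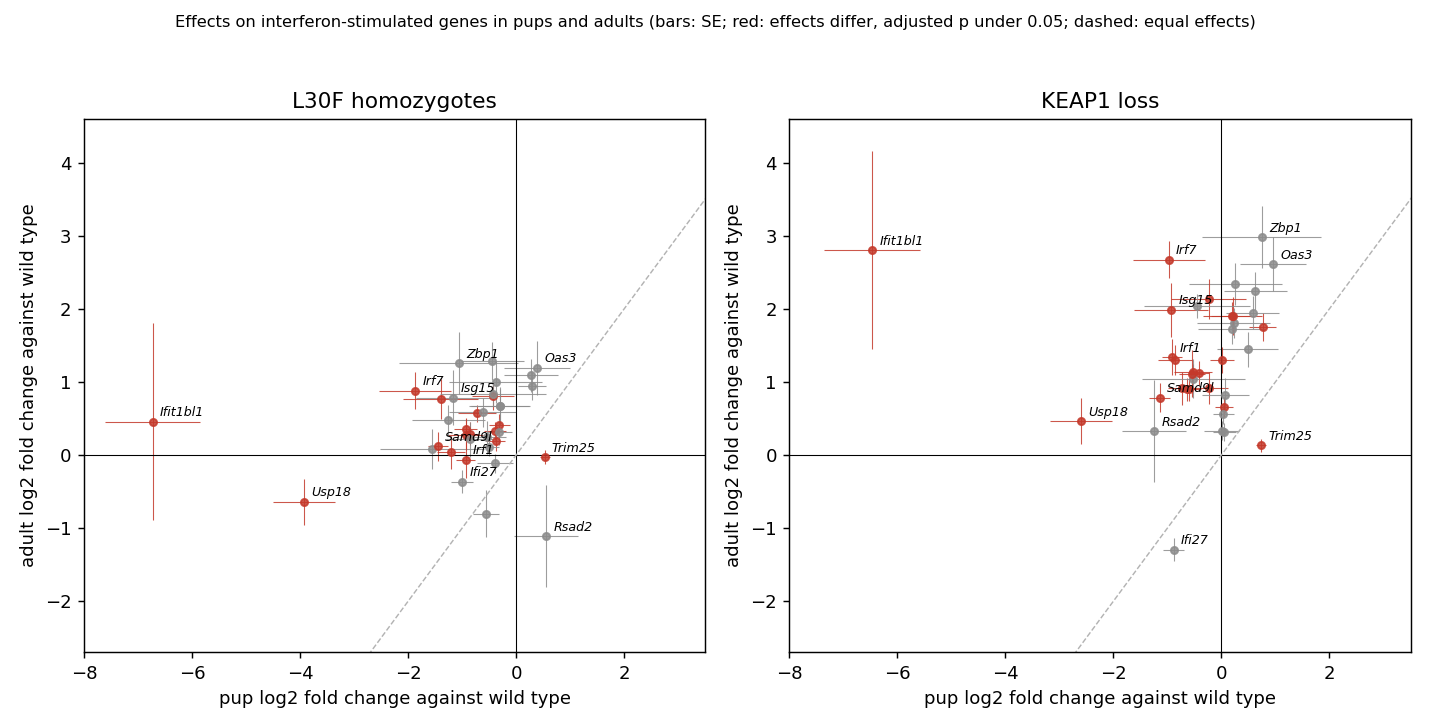
Log2 change from wild type in pups (horizontal axis) against that in adults (vertical axis) for the 37 members in both tables, with L30F homozygotes and KEAP1 loss in separate panels, bars of 1 SE, a dashed line of equal effects, and red points where the change differed between the experiments at adjusted p under 0.05. For KEAP1 loss most points lie above 0 on the adult axis and spread to both sides of 0 on the pup axis, and Trim25 is the 1 red point below the dashed line in each panel.

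Other genes of the pathway give the setting of these members; they come from lists chosen with earlier results of these data known. Genes for interferons themselves (11 on the list) were not analysed here. The counts below stand beside these shares of all genes called higher and lower. They were 24.1% and 22.7% in KEAP1-deficient adults, 11.8% and 10.4% in adult homozygotes and 4.8% and 4.9% in heterozygotes. In pups they were 22% and 17.1% with L30F and 26.3% and 23.2% without KEAP1. Of 9 receptor and kinase genes, 7 were higher and 1 lower in KEAP1-deficient adults: Ifnar2, a chain of the type I receptor, rose (0.96), as did the kinase gene Jak1 (0.44), while Ifnlr1, the type III receptor chain carried by epithelium, fell (log2 change -1.80, SE 0.19, adjusted p = 1.3e-06). Ifnlr1 was the 1 receptor gene called lower in L30F heterozygotes (-0.81) and homozygotes (-1.24) too. In pups this list was mixed, with 2 genes higher and 2 lower with L30F and 4 higher and 3 lower without KEAP1. Ifnar1 and Ifnar2 were lower in both mutants (log2 changes -0.22 and -0.53 with L30F, -0.36 and -0.58 without KEAP1), and Ifngr1, a chain of the interferon gamma receptor, and Il10rb, the chain that pairs with IFNLR1, were higher in both (0.72 and 0.50 with L30F, 0.88 and 0.71 without KEAP1). Jak1 and Tyk2 were also higher and Ifngr2 lower without KEAP1 (0.20, 0.33 and -0.27). Of 8 further transcription factors, 6 were higher and 1 lower in KEAP1-deficient adults, 1 was higher and 1 lower in adult homozygotes and in heterozygotes, and in pups 3 were higher and 1 lower with L30F and 3 were higher without KEAP1. Nlrc5, the activator of MHC class I genes, was higher than wild type in all 5 mutant groups (log2 changes 1.32 and 1.44 in pups, and 1.01, 1.60 and 3.09 in adult heterozygotes, homozygotes and KEAP1 loss).

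Among 15 sensors and adaptors upstream of interferon, 12 rose and 2, Cgas and Mavs, fell in KEAP1-deficient adults, with Sting1 at 1.87 and Myd88 at 1.02. In adult homozygotes 5 rose and 1 fell, in heterozygotes none passed in either direction, and in pups 4 rose and 1 fell in each mutant. Of 8 negative regulators, 4 rose in KEAP1-deficient adults, 2 in adult homozygotes and 3 in KEAP1-deficient pups, and none fell there; in L30F pups 2 rose and 1 fell. Socs1 and Socs3, which block the receptor kinases, rose in KEAP1-deficient adults (2.82 and 1.84) and in KEAP1-deficient pups (1.01 and 0.69). Of 31 interferon-stimulated genes outside the members, 25 rose and none fell in KEAP1-deficient adults (median 1.06), 13 rose in adult homozygotes and 1, Herc6, in heterozygotes. In pups 4 fell and none rose with L30F, and 6 fell and 1 rose without KEAP1. Both counts of falls lie below the shares of all genes called lower there, 17.1% and 23.2%. Mov10, an RNA helicase gene, fell most clearly in both, beside Apobec3 (-0.84 and -0.98). For Mov10 the values were log2 change -1.50, SE 0.18, adjusted p = 9.6e-05 with L30F and log2 change -1.88, SE 0.18, adjusted p = 1.2e-05 without KEAP1 (limma). Genes regulated by interferon gamma rose in 14 of 16 cases in KEAP1-deficient adults (median 1.5), among them Cd274, which encodes the immune checkpoint ligand PD-L1 (2.86), and the peptide transporter gene Tap1 (1.65), against 3 of 16 in homozygotes and 1, Gbp5, in heterozygotes. In pups 2 of 15 fell in each mutant, Irgm2 in both (-0.74 and -0.87), and the MHC class II activator gene Ciita rose without KEAP1 (1.83). The 2 of 15 also lie below the shares of all genes called lower in pups.

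**Figure D4:**
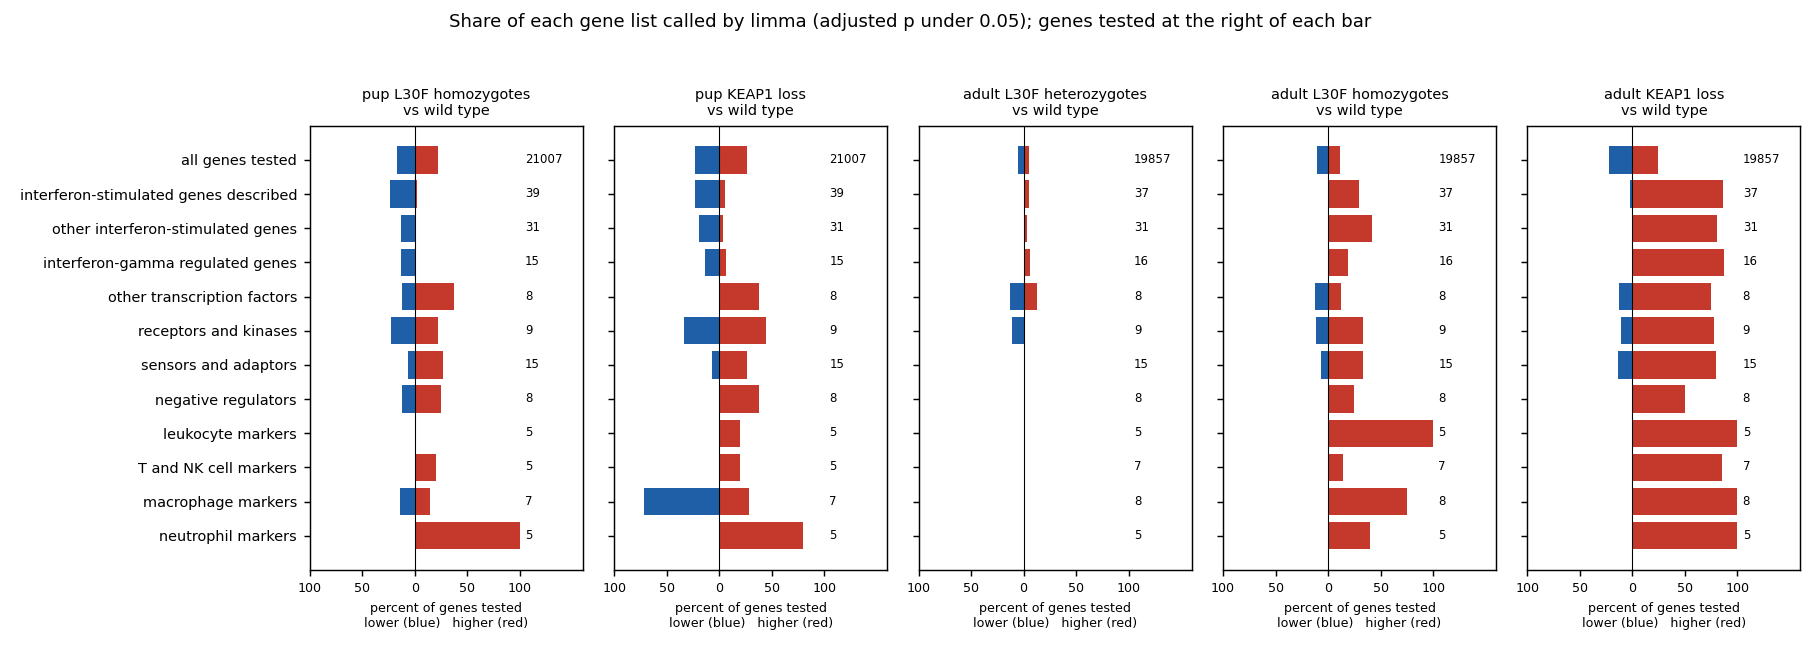
Percent of each gene list called higher (red, right) or lower (blue, left) by limma at adjusted p under 0.05 on the horizontal axis, with lists on the vertical axis, 1 panel for each mutant group against its wild type and the number of genes tested at the right of each bar. In KEAP1-deficient adults the members, the other interferon-stimulated genes, the interferon gamma genes and the leukocyte markers all reach far to the right, well past the bar of all genes, and in pups the interferon lists do not.

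Members with and without a match to the response element can be set side by side for each group. In KEAP1-deficient adults 10 of the 12 with a match and 16 of the 17 without were called higher, with medians of 1.78 and 0.91 log2 units, where 24.1% of all genes were higher. In adult homozygotes the counts were 3 of 12 and 5 of 17 (medians 0.57 and 0.21; 11.8% of all genes). In pups 2 of 12 with a match were called lower in each mutant (medians -0.74 with L30F and -0.23 without KEAP1), beside 4 of 17 without a match in each (medians -0.51 and -0.42). These counts are near the shares of all genes called lower there, 17.1% and 23.2%. In pups 1 member without a match was called higher with L30F, and 1 with and 1 without a match were called higher without KEAP1. The difference in medians was not tested.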

How the data were processed

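The deposited values were log2 values made by the authors from gene counts, 1 table each for pups and adults. The tools named in the submitters' processing notes are Salmon and build GRCm39. Their values are log2(normalised count + 4): with the 4 removed, 100% of values of up to 1000 reads were whole reads (within 0.1), and the scale factors matched median-of-ratios factors within 0.19% (pups) and 0.01% (adults). Libraries were directional, per the labels' protocols.

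Here the values were returned to normalised counts, and genes with a normalised count of 1 or more in 3 or more pup libraries, or 4 or more adult ones, were tested on log2(normalised count + 1) with limma 3.58.1 (trend, robust; statmod 1.5.0, R 4.3.3), all groups of an experiment in 1 fit, with Benjamini-Hochberg adjustment over 21007 (pups) or 19857 (adults) genes. Log2 changes understate low genes. Differences of effects between experiments were divided by their combined standard error. The script was checked on simulated data. Some results on single genes outside the members are not reported here.

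Members and lists were chosen with earlier results of these data known. All members could be named: 10 are given by library throughout, with the 6 called members of largest change in each comparison with wild type. Alternatives were other offsets, no filter, TMM scaling, limma-voom on recovered reads, thinning to the shallowest library, only the groups compared, a 1.5-fold threshold, replicate number as a block, and leaving out each library. Normalised counts are not divided by gene length, so levels were not compared between genes. Precision rests on 10867771 to 32281376 reads and 3 or 4 libraries a group.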

Additional observations from a re-analysis of the deposited data

Results flagged for a closer look

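Libraries that stood far from the others of their group were found for 6 of 148 sets of a member and an adult group, where chance alone gives about 1 in 20. Ifit2 was at 211 normalised counts in adult wild-type library 4, against 137 to 144 in the others, and Ifit1bl1 at 144.5 in the same library, against 0 to 3.4. Rsad2 was at 709.7 in heterozygote library 3, against 78.0 to 159. Oas1a was at 214.5 in homozygote library 1, against 102 to 108. In KEAP1-deficient adults, Oasl1 was at 100.3 in library 1, against 116 to 119, and Gbp2 at 826 in library 4, against 489 to 505. Groups of 3 pups were not examined this way.

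The effect of L30F homozygosity differed between adults and pups for 16 members, by a test of the difference of the log2 changes (adult minus pup). The differences were 7.19 for Ifit1bl1, 3.29 for Usp18, 2.75 for Irf7, 2.16 for Ifit1, 1.57 for Samd9l and 1.30 for Ddx58. They were 1.29 for Parp9, 1.24 for Cmpk2, 1.24 for Lgals3bp, 1.22 for Gbp2 and 1.15 for Dtx3l. Smaller ones were 0.87 for Irf1, 0.72 for Ifit2, 0.71 for Ifi35 and 0.58 for Eif2ak2, and Trim25 went the other way at -0.56.

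The effect of KEAP1 loss differed by the same test for 21 members. The largest differences were 9.27 for Ifit1bl1, 3.65 for Irf7, 3.06 for Usp18, 2.92 for Isg15, 2.37 for Ifit1, 2.25 for Irf1 and 2.16 for Gbp2. Samd9l (1.93), Lgals3bp (1.71), Oas2 (1.69), Ddx58 (1.66), Oasl1 (1.66), Cmpk2 (1.65), Dtx3l (1.55) and Ifit2 (1.54) followed. Parp9 differed by 1.49, Parp14 by 1.29, Stat2 by 1.14, Bst2 by 0.99, Eif2ak2 by 0.61 and Trim25 by -0.60. Adjusted p-values reached 0.046 for L30F and 0.032 for KEAP1 loss. Age, Cre driver and tamoxifen differ between the experiments and cannot be told apart.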

How the results depend on the processing

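For 67 results on single members, 536 values under settings other than leaving out a library kept their direction and side of the threshold in 517 cases, were lost in 7, gained in 9 and reversed in 3. The reversals were of Irf9 in KEAP1-deficient pups, with a log2 change of 0.00 and values of -0.04 with TMM scaling, 0.00 with limma-voom and -0.01 after thinning. With only the groups compared in the fit, 18 members were called in L30F pups, 0 in heterozygotes and 0 between homozygotes and heterozygotes; limma-voom called 1 in heterozygotes. Over all genes, 809 were then called in heterozygotes, against 1927, 1544 between homozygotes and heterozygotes, against 3249, and 185 between the pup mutants, against 875. The causes were not tested.

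Leaving out each library gave 31 to 33 called members for adult KEAP1 loss, 6 to 17 for homozygotes, 0 to 3 for heterozygotes, 2 to 5 for homozygotes against heterozygotes and 24 to 33 for homozygotes against KEAP1 loss. In the same order, 46.8%, 22.3%, 9.7%, 16.4% and 26.4% of all genes were called with all libraries. The share of all genes called also moves between such fits, so these ranges and those for pups do not describe the members alone. In pups, leaving out each library gave 9 to 15 for L30F, 7 to 14 for KEAP1 loss and 0 to 0 between the mutants. Effects differed for 9 to 22 (L30F) and 16 to 33 members (KEAP1 loss). In the same order, 39.2%, 49.5%, 4.17%, 33.5% and 47.1% of all genes were called with all libraries. Of 876 such values for single members, 11 reversed. In KEAP1-deficient pups the ranges were -0.41 to 0.37 for Irf9, -0.63 to 0.20 for Stat2, -1.16 to 0.50 for Ifit1, -1.50 to 0.74 for Oasl2 and -0.44 to 1.23 for Mx1. For Rsad2 they were -0.62 to 0.43 in heterozygotes and -0.23 to 0.72 in KEAP1-deficient adults, and for Irf1 in homozygotes -0.15 to 0.05. None of these genes was called there with all libraries, and Ifit1 was called without KEAP1-deficient library 2 (adjusted p = 0.045).

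Replicate numbers did not pair libraries: deviations of same-numbered libraries correlated at -0.10 to 0.22 in pups (1 of 9 pairs over 0.1) and -0.07 to 0.10 in adults (0 of 24). With the number as a block, 11 members were called in L30F pups, 9 in KEAP1-deficient pups, 0 between them, 2 in heterozygotes, 11 in homozygotes, 32 for adult KEAP1 loss, 3 for homozygotes against heterozygotes and 32 for homozygotes against KEAP1 loss. The shares of all genes called with this block are not given here, so these counts are not read against a background. Of single members followed, Irf7 in L30F pups became called (-1.87) and Zbp1 in homozygotes was lost (1.25).

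Depth limits the rarer members most: Zbp1, Mx1, Mx2 and Isg15 gave few reads in pups. Homozygote libraries had fewer reads than the other adult ones, and thinning all libraries to the shallowest left every count of called members within 1.5 times.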
